A study of Mus musculus with 28 samples.

Results

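The genes described here are 10 transcription factors of the interneuron lineage, Dlx1, Dlx2, Dlx5, Lhx6, Lhx8, Nkx2-1, Gsx2, Sp9, Sox6 and Maf, out of 19938 genes measured in mouse cells of strain 129SvEv. They were taken from a list of known regulators of inhibitory neurons, chosen with earlier results of these data known. Each had exactly 1 probe set with a single gene symbol on the array. The probe sets were 10472809 for Dlx1, 10483626 for Dlx2, 10543058 for Dlx5, 10482095 for Lhx6, 10502961 for Lhx8, 10400474 for Nkx2-1, 10522500 for Gsx2, 10472930 for Sp9, 10567108 for Sox6 and 10581992 for Maf. RNA of 28 samples in 12 groups was hybridised to Affymetrix expression arrays, and each value below is a log2 expression value of 1 array. Embryonic stem (ES) cells, neuronal progenitor (NP) cells and neurons at TN day 2 and TN day 6 carried a knockout of topoisomerase IIβ (Top2β) or were wild type (WT). TN is not spelled out in the labels. There were 3 arrays of each genotype at TN day 6 and 2 at each of the other stages. ES-derived neurons at TN day 5 had been given ICRF-193, an inhibitor of type II topoisomerases, or the solvent DMSO, with 2 arrays each. Glutamatergic neurons from E16.5 cortex had been given ICRF-193 or DMSO, with 3 arrays each. No genotype label stands on the treated samples. The treatment text of the labels gives 50 µM ICRF-193 with renewal every 24 h between TN days 2 and 5, and whether the cortical cultures followed that schedule is not stated. The knockout label does not say how many cell clones were used. No label tells whether the arrays of a group came from separate cultures or animals, so a p-value here reflects array-to-array spread alone, pooled over the 12 groups for each gene, and that spread may be technical.

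Cortical and striatal interneurons are born in the ganglionic eminences of the ventral forebrain and use GABA as their transmitter, whereas glutamatergic cortical neurons come from the dorsal wall of the same vesicle. In the ventral wall, Gsx2 and the sonic hedgehog target Nkx2-1 set up the lateral and medial eminence, and the Dlx homeobox genes act below them in nearly all GABAergic progenitors of the forebrain. Lhx6 and Lhx8 are LIM homeobox targets of Nkx2-1, with Lhx6 kept in migrating interneurons and Lhx8 in cholinergic neurons. Sox6 and Maf act later in interneurons of medial origin, and Sp9 is a zinc finger factor of interneurons and striatal neurons. Outside the forebrain, GABAergic neurons of the hindbrain and spinal cord are made with other factors, among them Ptf1a, Pax2, Lhx1 and Lbx1.

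Promoter windows of Dlx1, Dlx2 and Lhx6 are shown because these genes followed each other across the 12 groups. Dlx1 and Dlx2 are direct neighbours on chromosome 2 in the RefSeq annotation of GRCm38.p6, and Dlx5 lies beside Dlx6. RefSeq windows of 250 bases before to 50 bases after a transcript start were matched for 8 of the 10 members, in 15 windows, and those of Dlx5 and Maf are named only. Capitals mark the GC box GGGCGG, read on both strands, so that CCGCCC is the same motif on the other strand. The Dlx1 window covered chr2:71529195-71529494 on the + strand, the Dlx2 window chr2:71546705-71547004 on the - strand, and the farthest upstream of 3 Lhx6 windows chr2:36105359-36105658 on the - strand.
Dlx1: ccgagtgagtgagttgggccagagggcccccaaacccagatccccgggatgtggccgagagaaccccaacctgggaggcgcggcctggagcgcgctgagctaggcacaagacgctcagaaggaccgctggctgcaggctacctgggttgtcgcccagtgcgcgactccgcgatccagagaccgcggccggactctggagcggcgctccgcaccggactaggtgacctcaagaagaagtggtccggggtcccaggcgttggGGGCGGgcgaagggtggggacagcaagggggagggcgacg
Dlx2: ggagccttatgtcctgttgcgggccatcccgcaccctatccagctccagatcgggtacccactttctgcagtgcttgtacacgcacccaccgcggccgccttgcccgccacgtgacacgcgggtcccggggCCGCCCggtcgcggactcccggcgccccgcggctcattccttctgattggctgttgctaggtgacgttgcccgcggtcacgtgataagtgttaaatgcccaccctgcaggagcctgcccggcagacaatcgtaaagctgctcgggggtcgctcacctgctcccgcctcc
Lhx6: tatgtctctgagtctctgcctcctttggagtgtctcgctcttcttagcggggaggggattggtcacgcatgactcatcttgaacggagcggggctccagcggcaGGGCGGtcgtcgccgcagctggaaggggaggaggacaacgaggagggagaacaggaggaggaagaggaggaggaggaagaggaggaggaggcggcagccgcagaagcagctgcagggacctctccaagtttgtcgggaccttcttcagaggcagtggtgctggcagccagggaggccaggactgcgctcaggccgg
The GC box began at position 11 after the start in Dlx1, at -119 in Dlx2 and at -146 in Lhx6. G and C made up 69.3% of the Dlx1 window, 66.3% of the Dlx2 window and 63.3% of this Lhx6 window, against a median of 52.7% over all 32851 windows of the same length. The other Lhx6 windows had less G and C, 55.3% in one with a GC box and 48.7% in one without. A GC box stood in 8 of the 15 member windows, from 7 genes, and in 35.7% of all windows. The homeodomain core TAATTA, a palindrome, stood in 0 of the 15 member windows and in 5.29% of all windows, which says only that these letters were not in these 300 bases.

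The arrays were even in scale, with medians between 6.12 and 6.43. Arrays of 1 group correlated at 0.990 to 0.997 over all genes, apart from the ES knockout pair at 0.967. In that pair, array 1 had lower mean ES marker values than array 2 (9.35 against 10.62) and higher mean values of mesenchymal markers (8.17 against 6.90). Top2b, the deleted gene, was lower in knockout cells at every stage, with log2 fold changes of -1.29 in ES cells, -2.31 in NP cells, -2.41 at TN day 2 and -2.31 at TN day 6 (limma, adjusted p at most 0.0177). All 6 measured markers of cortical glutamatergic neurons were higher in cortical than in TN day 5 neurons under DMSO. Of microglial and astrocyte markers, 6 of 8 and 6 of 7 were called higher in the cortical cells as well, as were 5 of 7 oligodendrocyte lineage markers and 6 of 8 progenitor markers, while 1 progenitor marker and 4 of 9 mesenchymal markers were lower. A gene was called where its adjusted p over all 19938 genes was under 0.05 in limma's two-sided test. In such bulk samples, fewer cells of a type and less RNA per cell cannot be told apart.

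The members differed in how far they ranged across the 12 groups. Dlx1, Dlx2, Dlx5 and Lhx6 had their highest values in both groups of cortical neurons, apart from all ES-derived groups. Sox6, Maf and Sp9 had cortical and ES-derived groups that overlapped, and Lhx8, Nkx2-1 and Gsx2 stayed within a narrow band. The 12 group means spanned 4.38 log2 units for Dlx1, 3.77 for Dlx5, 2.45 for Lhx6, 2.03 for Sox6, 1.96 for Dlx2, 1.43 for Maf and 1.07 for Sp9. For Gsx2, Lhx8 and Nkx2-1 the span was 0.64, 0.51 and 0.44. Levels of different probe sets are not set against each other here, since probes differ in brightness. A low value is also no proof of absence, and no detection call was used.

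**Figure D1:**
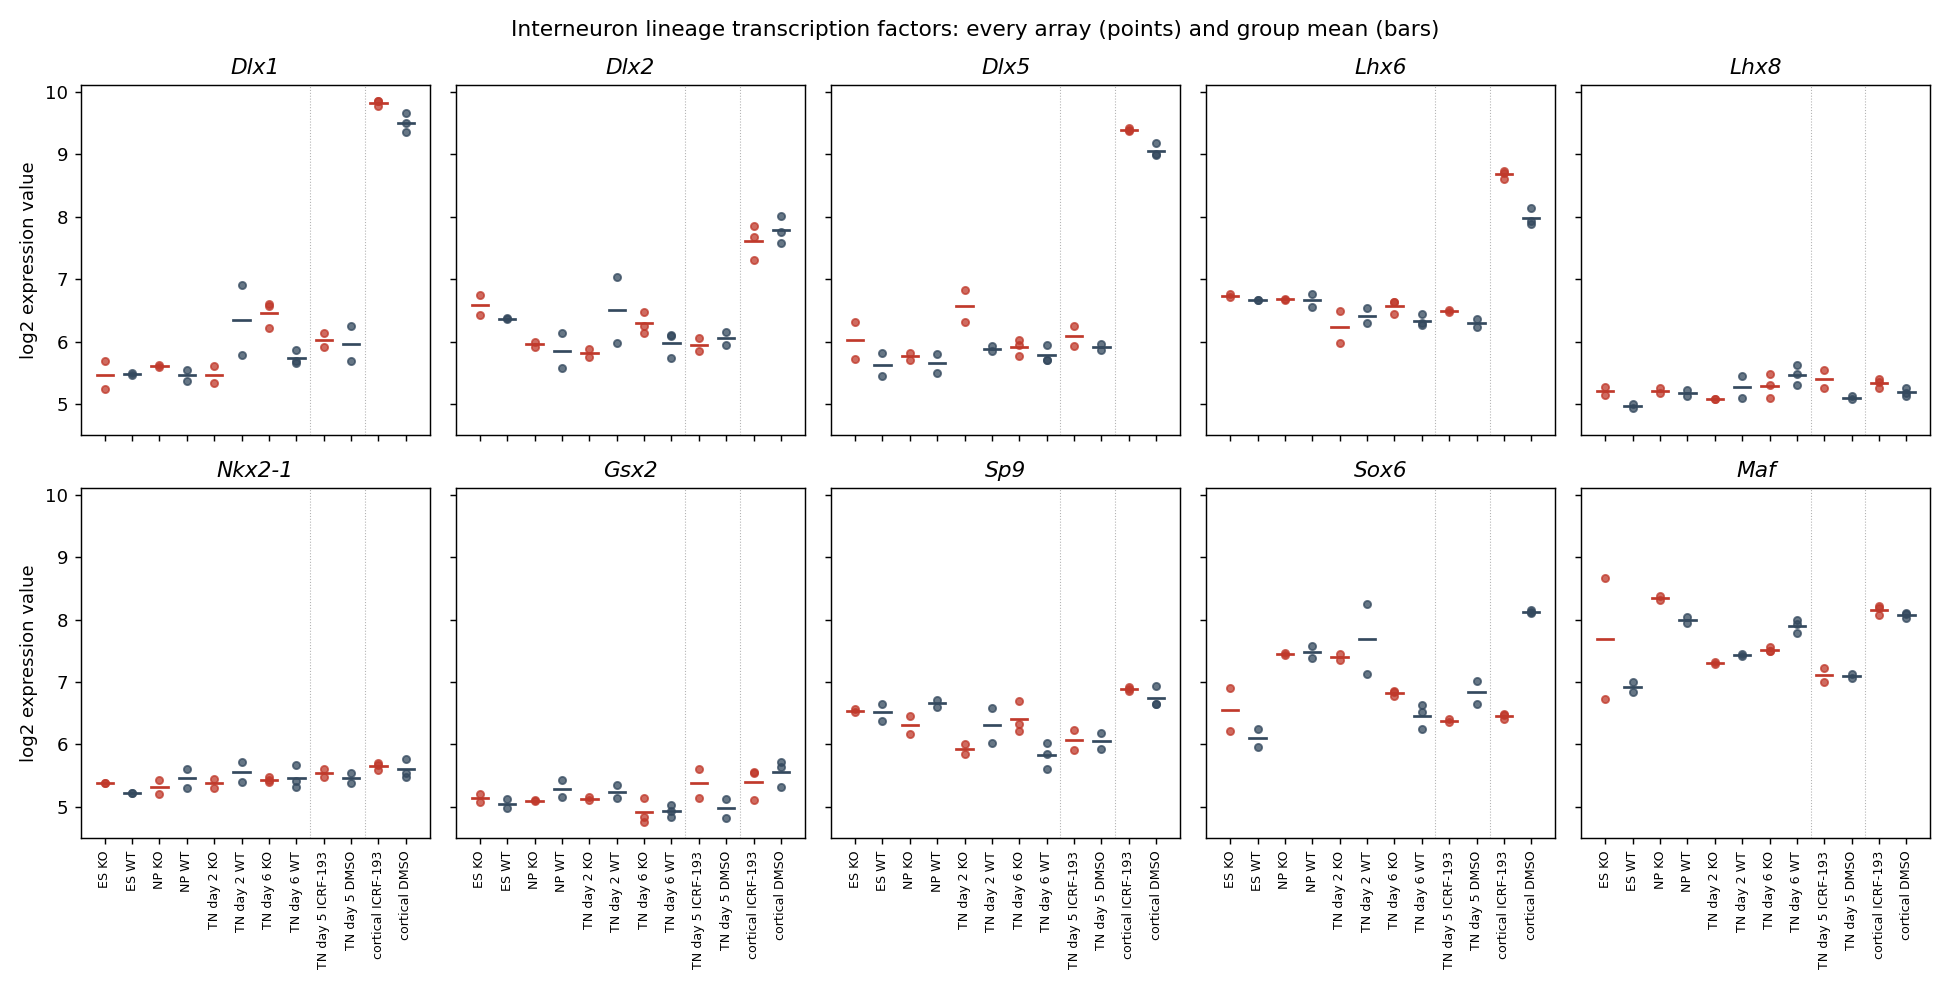
Log2 expression value (y axis) of the 10 members on every array (points) with group means (bars), for the 12 groups along the x axis, with knockout or ICRF-193 groups in red left of their WT or DMSO group in dark grey-blue. Dlx1, Dlx5 and Lhx6 stand out in the cortical groups, Sox6 separates the cortical groups from each other, and Lhx8, Nkx2-1 and Gsx2 are nearly flat.

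The regulators that specify the ventral forebrain showed the least range. Nkx2-1, which defines the medial eminence, lay between 5.20 and 5.77 on all 28 arrays, with its lowest mean of 5.21 in WT ES cells and its highest of 5.65 in cortical neurons with ICRF-193. Most neighbouring groups in that order overlapped. Gsx2, the factor of the lateral eminence, lay between 4.75 and 5.71, with group means from 4.91 in knockout neurons at TN day 6 to 5.55 in cortical neurons with DMSO. Lhx8 ranged from 4.93 to 5.62, and its order ran from 4.96 in WT ES cells to 5.47 in WT neurons at TN day 6. Neither Nkx2-1 nor Lhx8 was called in any comparison, and Gsx2 was called once, between cortical and TN day 5 neurons.

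Dlx1, a homeobox gene of GABAergic progenitors and neurons, had 9.36, 9.66 and 9.51 in cortical neurons with DMSO, against 6.25 and 5.68 in TN day 5 neurons with DMSO. The cortical arrays lay far above the others. In the order of group means, cortical neurons with ICRF-193 (9.83) stood apart from those with DMSO (9.51), and these from knockout neurons at TN day 6 (6.46). The next groups, WT TN day 2, TN day 5 with ICRF-193, TN day 5 with DMSO and WT TN day 6, had means of 6.34 to 5.74, and each overlapped the group above it in the order. WT neurons at TN day 6 stood apart from knockout NP cells below them. NP and ES cells and knockout neurons at TN day 2 closed the order, with means of 5.61 to 5.45.

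Dlx5, which follows Dlx1 and Dlx2 as progenitors mature, had 8.99, 9.01 and 9.18 in cortical neurons with DMSO, against 5.86 and 5.96 in TN day 5 neurons with DMSO. Both cortical groups (means of 9.40 with ICRF-193 and 9.06 with DMSO) stood above knockout neurons at TN day 2 (6.56), which stood above TN day 5 neurons with ICRF-193 (6.08). From there the means went down to 5.63 in WT ES cells, with overlapping neighbours throughout. Dlx2, the chromosomal neighbour of Dlx1, had 8.01, 7.76 and 7.58 in cortical neurons with DMSO, against 6.16 and 5.95 in TN day 5 neurons with DMSO. Its cortical groups overlapped each other and stood above all others, whose means ran from 6.59 in knockout ES cells to 5.82 in knockout neurons at TN day 2.

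Lhx6, which marks postmitotic interneurons of medial origin, had 7.89, 8.14 and 7.93 in cortical neurons with DMSO, against 6.36 and 6.23 in TN day 5 neurons with DMSO. The ES-derived groups had Lhx6 means between 6.24 and 6.74, with knockout ES cells at the upper end and knockout neurons at TN day 2 at the lower end of that band, and all neighbours below knockout ES cells overlapped. Sp9 was less graded. Its means ran from 5.82 in WT neurons at TN day 6 to 6.89 in cortical neurons with ICRF-193, and WT NP cells (6.65) overlapped cortical neurons with DMSO (6.74).

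Sox6 and Maf had orders of their own. Sox6 means were 8.13 in cortical neurons with DMSO, 7.69 in WT TN day 2, 7.47 in WT NP, 7.44 in knockout NP and 7.40 in knockout TN day 2 cells, each overlapping the next. They stood apart from the lower groups, which went from 6.83 in TN day 5 neurons with DMSO to 6.38 in those with ICRF-193 with overlapping neighbours, and WT ES cells came last at 6.10. Maf was highest in knockout NP cells at 8.34, followed by cortical neurons with ICRF-193 (8.16) and DMSO (8.07), and lowest in WT ES cells at 6.91.

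Under DMSO, 8 of the 10 members were called higher in cortical than in TN day 5 neurons and 0 lower, where 44.8% of all genes were called in either direction, 24.4% higher and 20.4% lower. Dlx1 was 11.7 times higher on the array scale (log2 fold change 3.55 ± 0.22 SE, limma adjusted p = 4.31e-11) and Dlx5 8.87 times (3.15 ± 0.16, adjusted p = 2.22e-12). For Dlx2 the ratio was 3.32 (log2 1.73 ± 0.23, adjusted p = 3.8e-06), for Lhx6 3.23 (1.69 ± 0.12, adjusted p = 5.47e-10) and for Sox6 2.46 (1.30 ± 0.22, adjusted p = 6.08e-05). Maf, Sp9 and Gsx2 were higher by 0.98, 0.69 and 0.59 on the log2 scale, with adjusted p-values of 0.00842, 0.00213 and 0.00533. Lhx8 (0.08 ± 0.12, adjusted p = 0.593) and Nkx2-1 (0.14 ± 0.12, adjusted p = 0.348) did not pass. The median change of the members was 1.14, against -0.03 over all genes. Since the members were chosen with earlier results of these data known, this is a description and no test of the set. Tissue, culture and experiment differ together here and cannot be told apart. For Sox6, oligodendrocyte lineage markers had list means of 7.53 to 7.62 in cortical and 6.05 to 6.08 in TN day 5 neurons, and progenitor markers 9.37 to 9.41 in cortical and 8.08 to 8.84 in TN day 5 neurons, and their part in its value was not tested. The call for Maf was lost without TN day 5 DMSO array 1 (adjusted p = 0.0629, range over settings 5.46e-09 to 0.0629) and that for Gsx2 without array 2 (0.0866, range 0.000256 to 0.0866).

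Genes of the GABAergic phenotype were also called in this comparison. Of 18 measured genes for GABA handling and interneuron subtypes, 11 were called higher and 2 lower, with a median of 0.64. Cck, Calb1 and Calb2, a neuropeptide and calcium-binding proteins of interneuron subtypes, were higher by 4.31 ± 0.25, 2.70 ± 0.24 and 2.23 ± 0.19. Lamp5 and Reln were lower, with log2 fold changes of -3.31 ± 0.25 and -2.14 ± 0.16. The enzymes Gad1 and Gad2, which make GABA, and the vesicular transporter Slc32a1 were higher by 0.74 ± 0.16, 0.79 ± 0.12 and 1.20 ± 0.13. These 3 genes are followed in several comparisons and were picked after their values were seen. Reelin and Cck are also made by excitatory neurons, so the list does not measure interneurons alone.

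Other transcription factors separated the origins. Among 15 further forebrain interneuron factors, 5 were called higher in cortical than in TN day 5 neurons (Etv1 2.03, Zeb2 1.74 and Sp8 1.34 leading) and 3 lower (Zic1 -3.52, Nr2f2 -1.44 and Prox1 -1.27). Dlx6, the neighbour of Dlx5, picked after its value was seen, was among the 5, with a change of 0.51 ± 0.13 (limma adjusted p = 0.00324) and group means of 6.45 in cortical and 5.94 in TN day 5 neurons. A list of 13 hindbrain and spinal factors of GABAergic neurons also holds factors of excitatory neurons, Evx1 among them. Of the 13, 8 were called lower in cortical neurons and 0 higher, with a median of -1.38 and 10 at an unadjusted p under 0.05. Lhx1 (-4.12), Tfap2b (-3.86) and Pax2 (-2.76) led them. With each array centred on its median, 11 of the 13 were called lower.

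The wild-type steps give the members from stage to stage. From ES to NP cells, 2 members were called higher and 0 lower, beside 46.3% of all genes in either direction, 21.7% higher and 24.5% lower. Sox6, an SRY-related factor found in progenitors as well as in interneurons, had 7.57 and 7.38 in WT NP cells, against 6.24 and 5.96 in WT ES cells (1.37 ± 0.24, limma adjusted p = 6.39e-05). Maf, a leucine zipper factor of many tissues, had 8.04 and 7.95 in WT NP cells, against 6.84 and 6.99 in WT ES cells (1.08 ± 0.31, adjusted p = 0.00703). Both genes were apart between the stages. Without WT ES array 1 the adjusted p of Maf was 0.0524, the highest of its range from 2e-09. Over the same step 12 of the 15 further forebrain factors were called higher, led by Nr2f1 (5.21), Meis2 (4.31) and Nr2f2 (4.25), and 8 of the 13 hindbrain and spinal factors, led by Lhx1 (3.75), Tfap2b (3.59) and Pax2 (2.64).

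From NP cells to TN day 2, 2 members were called higher, where 48.2% of all genes were called (21.6% higher and 26.6% lower), and the 2 arrays of WT neurons at TN day 2 disagreed. Dlx1 had 6.90 and 5.79 in WT neurons at TN day 2, against 5.36 and 5.55 in WT NP cells (0.89 ± 0.24, limma adjusted p = 0.00392). Dlx2 had 7.03 and 5.98 at TN day 2, against 5.57 and 6.14 in NP cells (0.65 ± 0.25, adjusted p = 0.0387). The first array was high for both genes, and for Dlx2 the second lay within the NP range. Without the first array the changes were 0.33 (adjusted p = 0.24, range 1.1e-05 to 0.24) for Dlx1 and 0.12 (adjusted p = 0.757, range 0.0004 to 0.757) for Dlx2. That array also had a mean of 9.78 over 8 progenitor markers, against 8.97 in the other, and 6.98 against 7.79 over 9 mesenchymal markers, and their part in the result was not tested. The call for Dlx2 was also lost without WT NP array 1 (0.36, adjusted p = 0.344).

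Over that same step Gad1, Gad2 and Slc32a1 rose by 2.08 ± 0.18, 2.68 ± 0.13 and 1.22 ± 0.14 in WT cells (limma, adjusted p at most 1.52e-07). Dlx5 and Lhx6 were not called, with means of 5.88 and 6.42 at TN day 2 and 5.65 and 6.67 in NP cells. In the hindbrain and spinal list 4 of 13 factors were called higher, Lbx1 (2.14), Tfap2a (1.82) and Tfap2b (1.52) leading, and 3 lower, Gata3 (-1.39), Gata2 (-1.22) and Ptf1a (-0.89). Among 11 genes of ventral forebrain patterning, most of them hedgehog pathway components, 7 were called lower and 0 higher, led by Gli3 (-2.23), Smo (-1.79) and Hhip (-1.77).

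From TN day 2 to TN day 6 in WT neurons, 3 members were called lower and 0 higher, where 28.5% of all genes were called (16.7% higher and 11.9% lower). Sox6 had 6.24, 6.63 and 6.51 at TN day 6, against 8.25 and 7.12 at TN day 2 (-1.23 ± 0.22, limma adjusted p = 0.000168). No TN day 6 array reached the lower TN day 2 value, and Sox6 was called in all 13 settings tried. Its change ran from -1.79 to -0.66 over these settings, so its size depended on the arrays used. Dlx1 (-0.61 ± 0.22, adjusted p = 0.044) and Sp9 (-0.48 ± 0.17, adjusted p = 0.0383) passed narrowly. Without WT TN day 2 array 1 their changes were -0.05 (adjusted p = 0.907, range 0.00025 to 0.907) and -0.20 (0.558, range 0.00711 to 0.558). Either call was also lost without TN day 6 array 1 (Dlx1 0.103, Sp9 0.154) or array 2 (Dlx1 0.1, Sp9 0.0666), and that of Dlx1 without array 3 (0.0518). Progenitor markers were lower at TN day 6 than at TN day 2 for 6 of 8 genes, with list means of 8.16 to 8.31 at TN day 6 and 8.97 to 9.78 at TN day 2, and their part in the fall of Sox6 was not tested.

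The knockout comparisons ask what loss of Top2β does at each stage. In ES cells 0 of 10 members were called (2 at an unadjusted p under 0.05), beside 0.351% of all genes (0.0853% higher and 0.266% lower), and in NP cells 0 of 10 (0 at an unadjusted p under 0.05), beside 0.627% (0.381% higher and 0.246% lower). The ES result hung on array 1 of the knockout, the array with low ES marker values. Maf had 8.66 and 6.73 in knockout ES cells, against 6.84 and 6.99 in WT ES cells. Its first knockout array was high and its second below both WT arrays. With array 1 as the only knockout array, Maf (1.75, limma adjusted p = 3.9e-10, range 3.9e-10 to 1), Sox6 (0.80, 0.028) and Dlx5 (0.69, 0.0095) would be called higher, and with array 2 alone the change of Maf was -0.18.

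At TN day 2, 1 member was called higher in knockout neurons and 1 lower, beside 11.5% of all genes (5.49% higher and 5.97% lower). Dlx5 had 6.31 and 6.82 in knockout neurons, against 5.92 and 5.84 in WT neurons (0.68 ± 0.18, limma adjusted p = 0.0154). All knockout arrays lay above all WT arrays. Dlx1 had 5.34 and 5.60 in knockout neurons, against 6.90 and 5.79 in WT neurons (-0.87 ± 0.24, adjusted p = 0.0212). The groups were apart, but 1 WT array made most of the difference. Dlx2 had 5.75 and 5.88 in knockout neurons, against 7.03 and 5.98 in WT neurons, and did not pass (-0.69 ± 0.25, adjusted p = 0.0862).

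Both calls at TN day 2 were fragile. Without WT array 1 the change of Dlx1 was -0.32 (adjusted p = 0.594, range 0.000165 to 0.594) and Dlx5 was not called (0.0846). Dlx1 was also lost without knockout array 1 (0.132) or 2 (0.0848), and Dlx5 without knockout array 2 (0.322, range 0.00351 to 0.322) or WT array 2 (0.0708). Without WT array 2, Dlx2, Sp9 and Sox6 would be called lower in knockout neurons (-1.22, -0.65 and -0.86). Mesenchymal markers stood at list means of 8 and 8.49 on the knockout arrays and 6.98 and 7.79 on the WT arrays, with 3 of 9 genes called higher, and neuron markers at 10.01 and 10.30 on the knockout arrays and 10.76 and 10.69 on the WT arrays, with 5 of 8 called lower. Dlx5 is a known gene of bone and cartilage as well as of neurons, and the part of these cells in its value was not tested.

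At TN day 6, 2 members were called higher in knockout neurons and 0 lower, beside 10.2% of all genes in either direction, 5.38% higher and 4.8% lower. Dlx1 had 6.57, 6.60 and 6.21 in knockout neurons, against 5.66, 5.68 and 5.87 in WT neurons. Sp9 had 6.32, 6.69 and 6.21 in knockout neurons, against 5.60, 5.85 and 6.02 in WT neurons. Neither gene overlapped between the genotypes. The ratio was 1.65 for Dlx1 (0.72 ± 0.20, limma adjusted p = 0.0189) and 1.5 for Sp9 (0.58 ± 0.15, adjusted p = 0.0131). For Dlx1 the knockout mean of 6.46 remained close to the ES-derived groups and far from the cortical mean of 9.51.

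Leaving out single arrays moved these calls as well. Dlx1 was not called without knockout array 1 (0.0825) or 2 (0.0951) or WT array 1 (0.0736) or 2 (0.0694), with changes of 0.65 to 0.69 and a range of adjusted p from 0.000476 to 0.0951. Sp9 was not called without knockout array 2 (0.44, adjusted p = 0.115) or WT array 1 (0.47, 0.0966), over a range from 0.00211 to 0.115. Radial glia and progenitor markers were higher in knockout neurons at this stage for 5 of 8 genes, with list means of 9.17 to 9.54 in knockout and 8.16 to 8.31 in WT neurons. Pax6 (2.32), Sox2 (1.57) and Slc1a3 (1.19) led them. The part of these cells in the values of Dlx1 and Sp9 was not tested.

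Maf had 7.5, 7.56 and 7.49 in knockout neurons at TN day 6, against 8, 7.92 and 7.79 in WT neurons. Every knockout array was below every WT array. The change of -0.38 did not pass in the fit over all arrays (SE 0.26, limma adjusted p = 0.472), in which the 2 discordant ES knockout arrays enter the pooled spread of this gene. Without both ES knockout arrays the SE was 0.07 and the adjusted p 0.000851, over a range of 0.000851 to 0.667. Sox6 (0.36 ± 0.19, adjusted p = 0.331), Dlx2 (0.32 ± 0.21, 0.447), Lhx6 (0.25 ± 0.11) and Dlx5 (0.12 ± 0.15) did not pass.

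GABAergic genes were also counted at TN day 6, where 5.38% of all genes were called higher in knockout neurons and 4.8% lower. In knockout neurons 1 of 18 was called higher, Chodl (0.95 ± 0.11), and 3 lower, Tac1 (-3.85 ± 0.18), Reln (-1.33 ± 0.14) and Slc32a1 (-0.70 ± 0.11). Gad1 (-0.09 ± 0.15) and Gad2 (-0.20 ± 0.11) did not pass. Among further forebrain factors 3 of 15 were called higher, Sp8 (1.05), Nkx6-2 (0.97) and Isl1 (0.84), and 2 lower, Zeb2 (-1.53) and Zic1 (-1.11). Sp8, the closest relative of Sp9, had group means of 6.34 in knockout and 5.29 in WT neurons (limma adjusted p = 6.19e-05). Of the hindbrain and spinal factors 4 of 13 were called higher, led by Gata3 (1.88), Lhx5 (0.83) and En1 (0.76), and 4 lower, led by Tfap2b (-2.04), Tfap2a (-1.85) and Lbx1 (-0.39). At TN day 2, Tfap2b (-0.92) and Lbx1 (-0.42) of that list were called lower in knockout neurons and no factor higher. There, 5.97% of all genes were called lower.

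Receptors and ligands that guide interneurons out of the eminences were counted in knockout neurons too, in a list that also holds Dcx, which is neither. Dcx, named for that reason, was called lower at TN day 2 (-0.44) and was not called at TN day 6 (0.01). Of all genes, 5.49% were called higher and 5.97% lower at TN day 2, and 5.38% higher and 4.8% lower at TN day 6. At TN day 2, 8 of 14 were called lower and 0 higher, with a median of -0.54 against -0.04 over all genes, with Nrg3 (-2.21), Erbb4 (-1.89) and Robo2 (-1.47) leading, and without WT array 1 the count was 5. At TN day 6 the median was -0.28, against 0 over all genes, and 6 of 14 were called lower, led by Nrg3 (-2.5), Robo2 (-2.37) and Erbb4 (-1.55), and 2 higher, the chemokine receptors Cxcr4 (1.24) and Ackr3 (0.57). Of 11 ventral forebrain patterning genes, Smo (0.57) was called higher in knockout neurons at TN day 2 and Ptch1 (-0.71) lower. At TN day 6, 3 of the 11 were called higher and 0 lower, Ptch1 (0.83), Gli3 (0.79) and Smo (0.61).

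**Figure D2:**
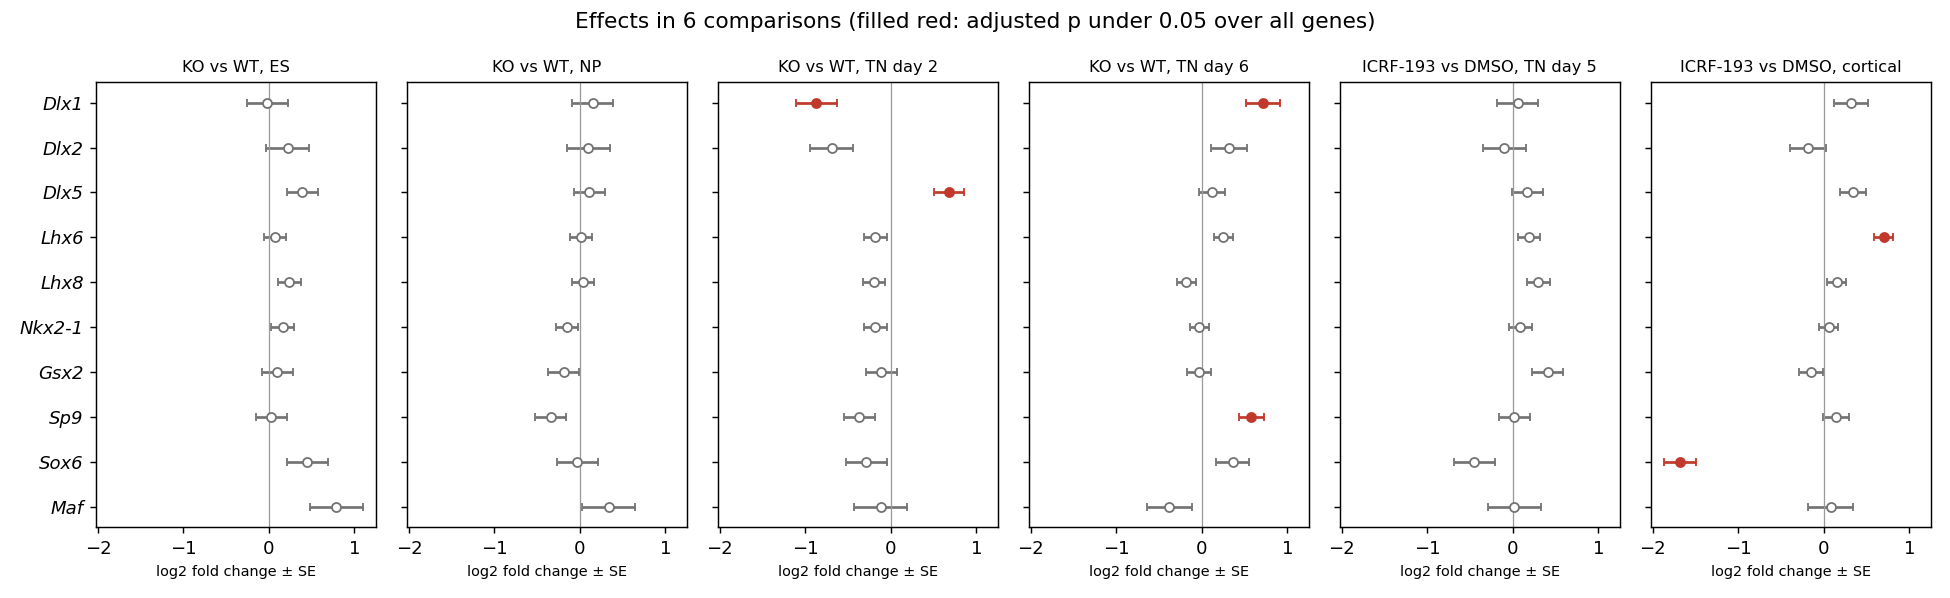
Log2 fold change with its standard error (x axis) of each member in 6 comparisons, knockout over WT at 4 stages and ICRF-193 over DMSO in 2 kinds of neuron, with filled red points for an adjusted p under 0.05. Sox6 in cortical neurons, at -1.68, is the largest change, and the signs of Dlx1 at TN day 2 and TN day 6 are opposite.

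ICRF-193 was tested in both kinds of neuron. At TN day 5, 0 of 10 members were called (2 at an unadjusted p under 0.05), beside 8.89% of all genes (2.51% higher and 6.37% lower). Sox6 had 6.40 and 6.35 with ICRF-193, against 6.65 and 7.01 with DMSO, which was apart but did not pass (-0.45 ± 0.24, limma adjusted p = 0.257). Radial glia and progenitor markers were lower with ICRF-193 in these cultures for 5 of 8 genes, led by Fabp7 (-5.23), Sox2 (-3.67) and Slc1a3 (-2.29), with list means of 6.68 to 6.71 with ICRF-193 and 8.08 to 8.84 with DMSO. Their part in the values of Sox6 and of the lists below was not tested. Dlx1 (0.06), Dlx2 (-0.10), Dlx5 (0.17) and Lhx6 (0.19) moved by less than 0.2 on the log2 scale. Gsx2 had 5.61 and 5.14 with ICRF-193, against 5.12 and 4.82 with DMSO (0.41 ± 0.18, adjusted p = 0.154), and would be called without ICRF-193 array 2 (0.65, adjusted p = 0.0418, range 0.0418 to 0.764).

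In cortical neurons ICRF-193 moved Sox6 and Lhx6 in opposite directions, as the only members called of 10, beside 23.4% of all genes in either direction, 9.72% higher and 13.7% lower. Sox6 had 6.48, 6.47 and 6.40 with ICRF-193, against 8.12, 8.15 and 8.11 with DMSO. The groups were far apart, and the treated arrays were within the range of WT neurons at TN day 6. The ratio was 0.312 (log2 -1.68 ± 0.19, limma adjusted p = 1.27e-06), and Sox6 was called in all 14 settings. Lhx6 had 8.61, 8.74 and 8.71 with ICRF-193, against 7.89, 8.14 and 7.93 with DMSO. All treated arrays were higher, at a ratio of 1.62 (0.70 ± 0.11, adjusted p = 6.69e-05), also called in all 14 settings.

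Dlx1 and Dlx5 were slightly higher with ICRF-193 without passing. Dlx5 had 9.38, 9.40 and 9.42 with ICRF-193, against 8.99, 9.01 and 9.18 with DMSO (0.34 ± 0.15, limma adjusted p = 0.1). Dlx1 had 9.85, 9.78 and 9.86 with ICRF-193, against 9.36, 9.66 and 9.51 with DMSO (0.32 ± 0.20, adjusted p = 0.255). Neither gene overlapped between the treatments. In a fit of the cortical arrays alone both would be called (Dlx5 0.00569 of a range of 0.00569 to 0.229, Dlx1 0.0171 of a range of 0.0171 to 0.487). Dlx2 had 7.30, 7.68 and 7.85 with ICRF-193, against 8.01, 7.76 and 7.58 with DMSO, which overlapped (-0.18 ± 0.21, adjusted p = 0.57). Maf (0.08 ± 0.26) and Sp9 (0.14 ± 0.15) did not pass.

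**Figure D3:**
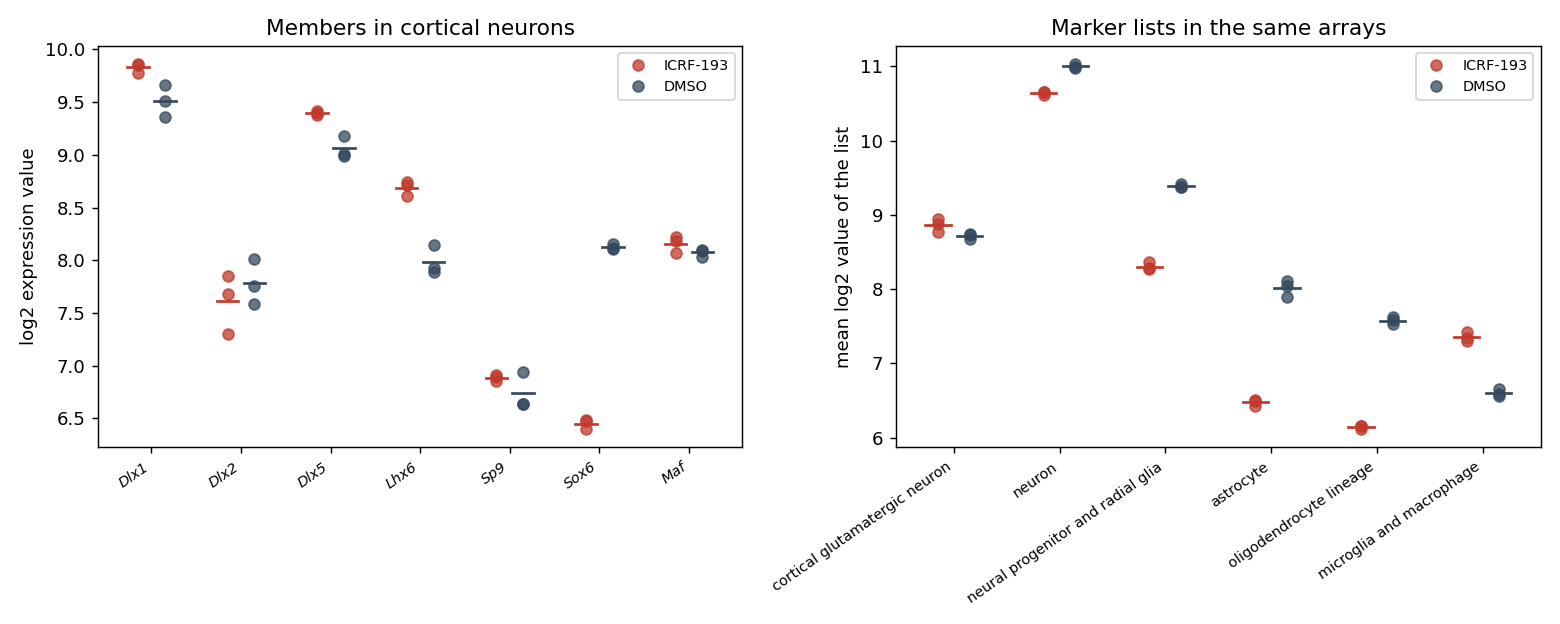
Cortical neurons with ICRF-193 (red, left of each pair) and DMSO (dark grey-blue), 3 arrays each, with means as bars. The left panel gives log2 values of 7 members, and the right panel gives the mean log2 value of 6 marker lists, in which astrocyte, oligodendrocyte and progenitor lists are lower and the microglial list is higher with ICRF-193.

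Markers of other cells moved with both calls in the cortical arrays. Astrocyte markers were lower with ICRF-193 for 6 of 7 genes, with list means of 6.43 to 6.51 with ICRF-193 and 7.89 to 8.11 with DMSO. Oligodendrocyte lineage markers were lower for 5 of 7 genes, with list means of 6.12 to 6.16 with ICRF-193 and 7.53 to 7.62 with DMSO, led by Pdgfra (-3.75), Olig2 (-2.52) and Olig1 (-2.28). Radial glia and progenitor markers were lower for 4 of 8, with list means of 8.27 to 8.36 with ICRF-193 and 9.37 to 9.41 with DMSO. Sox6 is also a gene of progenitors and of oligodendrocyte precursors, and the part of these cells in its fall was not tested. Microglial markers were higher for 8 of 8 genes, at 7.30 to 7.42 with ICRF-193 and 6.56 to 6.65 with DMSO. Of cortical glutamatergic markers, Tbr1 (0.99) and Neurod2 (0.70) were called higher with ICRF-193 and Emx1 (-0.48) lower. Of general neuron markers 2 of 8 were higher and 4 lower, with Syt1 (-2.24) the most, and list means of 10.61 to 10.66 with ICRF-193 and 10.98 to 11.03 with DMSO. The part of these cells in the values of Lhx6 was not tested.

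Subtype genes of interneurons split under ICRF-193 in cortical neurons. Of 18 genes of the GABAergic list, 3 were called higher and 5 lower, with a median of -0.17 against 0.04 over all genes. Beside these counts, 9.72% of all genes were called higher and 13.7% lower. Chodl (3.24 ± 0.11), the calcium-binding protein gene Calb1 (2.96 ± 0.21) and Gad2 (0.80 ± 0.11) were higher. Calb2 (-1.59 ± 0.17) and the neuropeptide genes Npy (-1.36 ± 0.12) and Sst (-0.97 ± 0.11) led those that fell, all with limma adjusted p at most 9.2e-07. Gad1 (0.28 ± 0.15, adjusted p = 0.178) and Slc32a1 (-0.07 ± 0.11, adjusted p = 0.695) did not pass. Sst, which depends on Lhx6 and Sox6 in mouse cortical interneurons, had means of 9.99 with ICRF-193 and 10.96 with DMSO. With quantile normalization 7 of the list were called lower, and with median centring 4.

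Forebrain and migration genes were also counted with ICRF-193. Of all genes, 9.72% were called higher and 13.7% lower in cortical neurons, and 2.51% higher and 6.37% lower at TN day 5. Of further forebrain factors, 1 of 15 was called higher in cortical neurons, Isl1 (1.21), and 3 lower, Meis2 (-2.04), Zeb2 (-1.71) and Nr2f1 (-0.61). At TN day 5, 5 of 15 were called lower and 0 higher, led by Meis2 (-1.64), Nr2f1 (-1.23) and Prox1 (-1.07). Migration genes had 5 of 14 lower in cortical neurons, led by Erbb4 (-3.87), Nrg3 (-3.57) and Robo2 (-2.41), and 2 higher, Nrp2 (0.97) and Gfra1 (0.38). At TN day 5, 7 of 14 were lower and 0 higher, led by Robo2 (-3.60), Nrg3 (-3.25) and Erbb4 (-3.07). Of the GABAergic list at TN day 5, 2 of 18 were higher, Gad2 (0.74) and Npy (0.70), and 3 lower, Reln (-1.64), Lamp5 (-1.25) and Tac1 (-1.22). Of the hindbrain and spinal factors with ICRF-193, 1 of 13 was higher and 0 lower in cortical neurons, Pax8 (0.38), and at TN day 5 Lhx5 (0.99) was higher and Tfap2b (-1.52) lower.

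**Figure D4:**
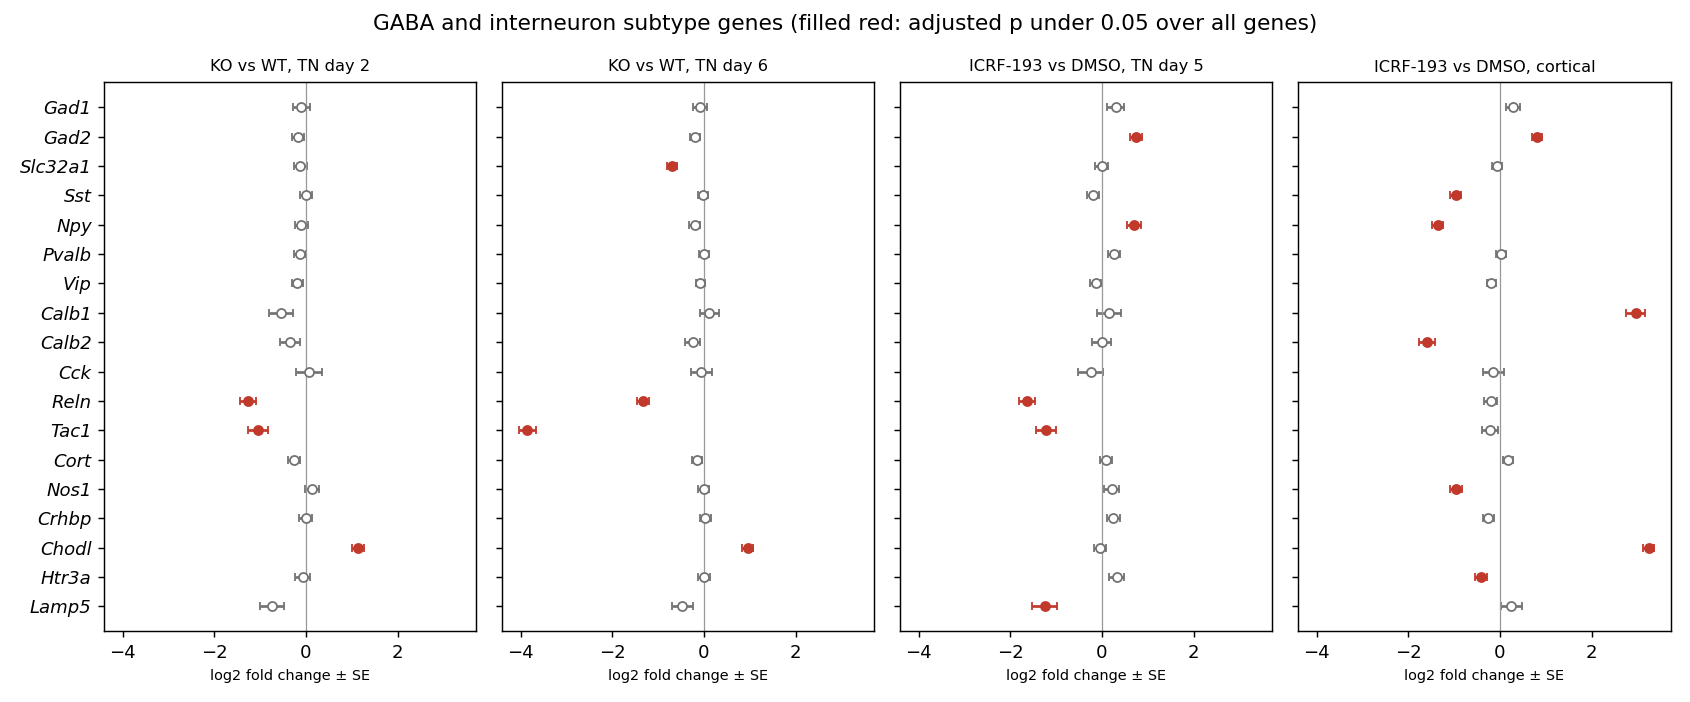
Log2 fold change with its standard error (x axis) of 18 genes of GABA synthesis, transport and interneuron subtypes in 4 comparisons, with filled red points for an adjusted p under 0.05. Gad2 is higher with ICRF-193 in both kinds of neuron, Tac1 has the largest fall at TN day 6, and Calb1 and Chodl stand far to the right in cortical neurons.

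Tests of the difference between effects gave 3 calls among the members. The knockout effect at TN day 6 minus that at TN day 2 was called for 2 of 10, Dlx1 (1.60 ± 0.31) and Sp9 (0.95 ± 0.24), both higher, beside 4.8% of all genes, 2.71% higher and 2.09% lower. For TN day 2 minus NP it was called for 0 of 10 (limma, 3 at an unadjusted p under 0.05), beside 2.71% of all genes (1.38% higher and 1.33% lower), and for NP minus ES for 0 of 10 (0 at an unadjusted p under 0.05), beside 0.256% (0.16% higher and 0.0953% lower). The ICRF-193 effect in cortical minus that in TN day 5 neurons was called for Sox6 (-1.23 ± 0.31), beside 4.37% of all genes, 1.69% higher and 2.68% lower.

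Cholinergic genes were followed because Lhx8 specifies cholinergic neurons of the forebrain. In knockout neurons at TN day 2, Ngfr was called lower (-0.60, limma adjusted p = 0.00745), beside 5.97% of all genes. No other gene of the list was called there. In knockout neurons at TN day 6, 3 of 6 were called higher, Slc18a3 (0.78), Ngfr (0.64) and Gbx1 (0.29), beside 5.38% of all genes. Chat (0.17, limma adjusted p = 0.345) and Slc5a7 (0.11, 0.857), picked after their values were seen, did not pass. Lhx8 had 5.09, 5.48 and 5.30 in knockout, against 5.30, 5.62 and 5.48 in WT neurons (-0.18 ± 0.11, adjusted p = 0.403). At TN day 5, 2 of 6 were called higher with ICRF-193, Ngfr (1) and Gbx1 (0.46), beside 2.51% of all genes. Chat (0.29, adjusted p = 0.125) and Slc5a7 (0.41, 0.3) did not pass there. Lhx8 had 5.55 and 5.25 with ICRF-193, against 5.08 and 5.12 with DMSO (0.30 ± 0.13, adjusted p = 0.172). In cortical neurons 0 of 6 were called (1 at an unadjusted p under 0.05), beside 23.4% of all genes.

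The patterns of the members over the 12 group means were compared as a description. Pearson's r was 0.96 between Dlx1 and Dlx5, 0.93 between Dlx1 and Lhx6, 0.92 between Dlx1 and Dlx2 and 0.92 between Dlx5 and Lhx6. These values rest mainly on the contrast of 2 cortical groups with the other 10. Sox6 had r between 0.08 and 0.41 with the other members whose means spanned at least 1 log2 unit. Among 11086 genes with such a span, those most like Dlx1 were Tbr1 (0.985), Neurod6 (0.98) and Hnmt (0.979), the first 2 being glutamatergic neuron factors. Dlx5 was closest to Mpeg1, Dlx1as and Tbr1, each at 0.98, and Dlx1as is the antisense transcript at the Dlx1 locus. Lhx6 was closest to Adgre1 (0.974), Trmt9b (0.97) and Cybb (0.968), of which Adgre1 and Cybb are known from macrophages. Dlx2 was closest to Vps29 (0.959), Xist (0.948) and Larp6 (0.947). Lower values were found for Sox6 with Cdkn2c (0.898), Stard4 (0.882) and Rfx3 (0.867), for Sp9 with Cst3 (0.881), Fam43b (0.875) and Arrdc4 (0.872), and for Maf with 2310022B05Rik (0.868), Car11 (0.862) and Cdkn1b (0.857).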

How the data were processed

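RNA of 28 samples was measured on 28 arrays. The deposited table holds log2 expression values of 35556 probe sets, processed by the authors with the package oligo, version 1.14.0, per the submitters' processing notes. Not given in the sources used here are background correction, summarization and the base of the logarithm; base 2 was read from the range of 1.963 to 13.99. No further normalization was applied.

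Of the probe sets, 21789 carried 1 gene symbol in the platform annotation, 1621 several and 12146 none. Where a gene had several (999 genes), the brightest by its mean over the arrays stood for it, which gave 19938 genes. Each member had 1 probe set. No gene positions are given, since no build is named; promoter windows carry RefSeq's build.

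All 28 arrays entered 1 limma 3.58.1 model of 12 group means (R 4.3.3; 16 residual and 4.87 prior degrees of freedom), with two-sided tests and Benjamini-Hochberg adjustment over 19938 genes for each of 14 contrasts, 4 of them interactions. Errors are SE of the model. The method was tested on simulated data. The number of arrays limits the precision.

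All members are named in all groups. From each list, at most 3 called genes per direction and comparison are named by size, and other names are marked where they occur. The members and lists were chosen with earlier results of these data known. Alternatives were array weights, an intensity trend, a mean of at least 6, median centring, quantile normalization, only the compared arrays, a replicate block and leaving out each array. Chosen after seeing the data were leaving out both ES knockout arrays, a crossed block in NP cells and list counts under other settings.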

Additional observations from a re-analysis of the deposited data

Results flagged for a closer look

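The effect of the knockout on Dlx1 differed between TN day 6 and TN day 2, by an interaction of 1.60 ± 0.31 on the log2 scale (limma adjusted p = 0.00373), with a change of 0.72 at TN day 6 and -0.87 at TN day 2. This difference was called in all 18 settings, with adjusted p between 1.98e-05 and 0.0367, and was 1.04 at its lowest. The WT arrays of Dlx1 at TN day 2 stood at 6.90 and 5.79, and without WT array 1 its change at TN day 2 was -0.32. For Sp9 the same interaction was 0.95 ± 0.24 (adjusted p = 0.0219), from changes of 0.58 and -0.37. It was called in 12 of 18 settings, over a range of 0.00353 to 0.234, and reached 0.67 (adjusted p = 0.234) without WT TN day 2 array 1. The calls were 2 of 10 members, beside 4.8% of all genes.

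The effect of ICRF-193 on Sox6 differed between cortical and TN day 5 neurons, by -1.23 ± 0.31 (limma adjusted p = 0.0213), from changes of -1.68 in cortical and -0.45 in TN day 5 neurons. It was called in 16 of 18 settings, with exceptions without TN day 5 DMSO array 1 (-1.05, adjusted p = 0.127, range 0.000616 to 0.127) or ICRF-193 array 1 (-1.20, 0.0766). Of all genes 4.37% were called in that contrast. No group held 4 or more arrays, so single arrays were not tested as outliers.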

How the results depend on the processing

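Of 1888 recomputed changes of the members, 1807 kept their side of the threshold, 42 lost and 39 gained a call, and the other sign appeared 90 times among uncalled changes and 0 times among called ones. In every setting 11 of 24 called values were called. Counts of called members that moved by over 1.5 times were, in the fit of only the arrays compared, 0 (knockout, TN day 2), 4 (ICRF-193, cortical) and 1 (interaction of TN day 6 and TN day 2), with array weights 4 (ICRF-193, cortical), with quantile normalization 2 (ICRF-193 interaction), and without both ES knockout arrays 1 (interaction of TN day 2 and NP). Leaving out 1 array gave 0 to 3 calls for the knockout in ES cells, 0 to 4 at TN day 2 and 0 to 2 at TN day 6, 0 to 1 for ICRF-193 at TN day 5, 1 to 3 for NP against ES, 1 to 3 for TN day 2 against NP, 1 to 4 for TN day 6 against TN day 2, and for the interactions 0 to 1 (NP and ES), 0 to 2 (TN day 2 and NP), 1 to 4 (TN day 6 and TN day 2) and 0 to 1 (ICRF-193). The causes were not tested, beyond fewer arrays in these fits; a lone array was assumed to vary like the other groups.

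With the replicate number as a block (replicate block), WT TN day 6 against TN day 2 gave 1 called member instead of 3, with Dlx1 (0.0599) and Sp9 (0.0636) lost, and no other call of a member changed. Whether the numbers pair the arrays is not known. Deviations of same-numbered arrays correlated at -0.23 to 0.38, highest for ICRF-193 at TN day 5 (0.38) and WT NP against ES (0.32). With 2 arrays in both groups the 2 numbers give the same value, which cannot settle pairing. For WT TN day 6 against TN day 2 the values were -0.02 and -0.13, and no group of 3 pairs was over 0.1 throughout. A crossed pairing in NP cells, at -0.23, called 0 members. The median of all genes for TN day 2 against NP moved from -0.08 to 0.02 with quantile normalization and 0.05 with median centring, a shift of 0.11 and 0.14. No member had another probe set to try. Groups of 2 arrays and the discordant arrays of the WT TN day 2 and ES knockout pairs are limits of these results.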

Other observations

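Several genes of the wider lists changed strongly in WT differentiation between the stages. Sst, the somatostatin gene, rose by 4.20 ± 0.13 from ES to NP cells (limma adjusted p = 8.56e-16), with means of 10.30 in NP and 6.10 in ES cells. Lamp5 rose by 3.98 ± 0.27 from NP cells to TN day 2, and Tac1, the tachykinin precursor gene, by 5.10 ± 0.20 from TN day 2 to TN day 6 (adjusted p = 9.29e-13). Cxcr4, the chemokine receptor of migrating interneurons, picked after its values were seen, rose by 2.39 ± 0.36 from NP cells to TN day 2 and fell by 2.77 on the log2 scale from there to TN day 6 in WT neurons.

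Without both ES knockout arrays, a setting chosen after seeing the data, Maf was also called between WT stages, at -0.57 from NP cells to TN day 2 (limma adjusted p = 1.49e-05, range over settings 1.49e-05 to 0.299) and 0.48 from TN day 2 to TN day 6 (0.000108, range 0.000108 to 0.425).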
